A study of Mus musculus with 1 sample.

Results

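The cytosolic chaperonin CCT, also called TRiC, is built from 8 different subunits, and the poly(A) tails of the 8 mRNAs that encode them were measured here in wild-type mouse epiblast-like cells (EpiLCs). The genes are Tcp1, which encodes the first subunit, Cct2, Cct3, Cct4, Cct5, Cct6a, Cct7 and Cct8. They were chosen by symbol from 12842 genes with reads in the cells, 12816 of them nuclear, and all 8 passed the minimum of 10 transcripts that 7146 nuclear genes passed. The cells were labelled wild type, and the paper gives ICR as the strain of its mice. They had been differentiated from embryonic stem cells for 24 h in N2B27 medium. It held activin A at 20 ng/ml, bFGF at 12 ng/ml and KSR (knockout serum replacement) at 1%. Tails were read by PAIso-seq, in which a full-length cDNA that still carries its tail is read in repeated passes on the PacBio platform. There was 1 group with 1 sample, which holds 2 replicates under different barcodes. With a single group of 2 replicates, values are given for each replicate, and no test between conditions was possible.

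In the whole sample, 246316 nuclear transcripts of replicate 1 and 455660 of replicate 2 had at least 7 passes. The CCT subunits gave 2623 and 5803 of them. That is 1.06% (95% Wilson interval 1.03 to 1.11) and 1.27% (1.24 to 1.31) of all nuclear transcripts, so the replicates differed by more than counting error. Most marker genes went with the EpiLC label. The pluripotency factor Pou5f1 had 303 transcripts, and the formative genes Dnmt3b, Otx2, Pou3f1 and Fgf5 had 299, 160, 62 and 37. Of the naïve genes, Prdm14, Klf4, Tbx3 and Nanog had 0, 1, 4 and 10 transcripts, but Zfp42 still had 501. The endoderm, mesoderm and fibroblast markers Sox17, T, Col1a1 and Col1a2 had none, and Gata6 had 1.

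CCT consists of stacked rings in which each of the paralogous subunits takes a fixed place, and it closes over a newly made protein in a cycle driven by ATP. Actin and tubulin are its best known clients, and many WD40 repeat proteins also depend on it. Since one copy of every subunit enters each ring, the subunits are needed in matched amounts, and the poly(A) tail is one of the features of an mRNA that bear on its translation and its decay. The subunits divide into a side of the ring with high affinity for ATP (Tcp1, Cct2, Cct4 and Cct5) and a side with low affinity (Cct3, Cct6a, Cct7 and Cct8).

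The tail is added a short distance downstream of a poly(A) signal, most often AATAAA or its variant ATTAAA. To show where RefSeq places the signal, 30 bases around the signal nearest the RefSeq mRNA end are printed for each subunit that holds either motif in its last 50 bases, read 5′ to 3′ on the transcribed strand of GRCm38 with the signal in capitals.
Tcp1: ctctaactcagaAATAAAtctgcctgcctt
Cct2: actgtgtattaaAATAAAaatccagttact
Cct4: tttaatgaaaacATTAAAtacttggtttta
Cct5: tgtagatgctggAATAAAagcagctgtctg
Cct3: ttgcttccaatgATTAAAtctaagtcattt
Cct6a: ttcagaaaagctAATAAAgccaagttactc
Cct8: tgtatttaaataAATAAAcatgattttttt

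These windows lie at chr17:12925031-12925060 (plus strand) for Tcp1, chr10:117051007-117051036 (minus) for Cct2, chr11:23003301-23003330 (plus) for Cct4 and chr15:31590817-31590846 (minus) for Cct5. Those of the low affinity side lie at chr3:88321736-88321765 (plus) for Cct3, chr5:129846396-129846425 (plus) for Cct6a and chr16:87483337-87483366 (minus) for Cct8. Between 13 (Cct3) and 30 bases (Cct6a) separated the signal from the annotated mRNA end. The ends are those of RefSeq and were not placed from the reads, and the Cct6a window lies beyond the end of the gene model by which its reads were counted. Neither motif occurred in the last 50 bases of Cct7. Among 6645 tested genes matched to a RefSeq mRNA, 66.3% held AATAAA in that stretch, 15.5% held ATTAAA without AATAAA and 18.2% held neither. The median gene tail lengths of these classes were 75.3, 75.05 and 76.2 nt. The kind of signal did not order the subunits either, since Cct8 and Cct2, at opposite ends of the tail length order, both carried AATAAA.

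The tail length of a gene was taken as the geometric mean over its transcripts. Cct8 had the longest tails of the subunits, 93.1 nt with both replicates pooled, and Cct2 had the shortest, 70.9 nt. The other 6 subunits lay between 75.5 and 84.4 nt. Of the processing settings that could move these values, 12 in all with the single replicates among them, Cct8 was the longest in 12 and Cct2 the shortest in 11. The exception was replicate 2 taken alone, in which Cct6a was shortest. The order between these ends did change: by median tails, Cct6a moved from rank 7 to rank 2 and Cct5 from rank 2 to rank 6.

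**Figure D1:**
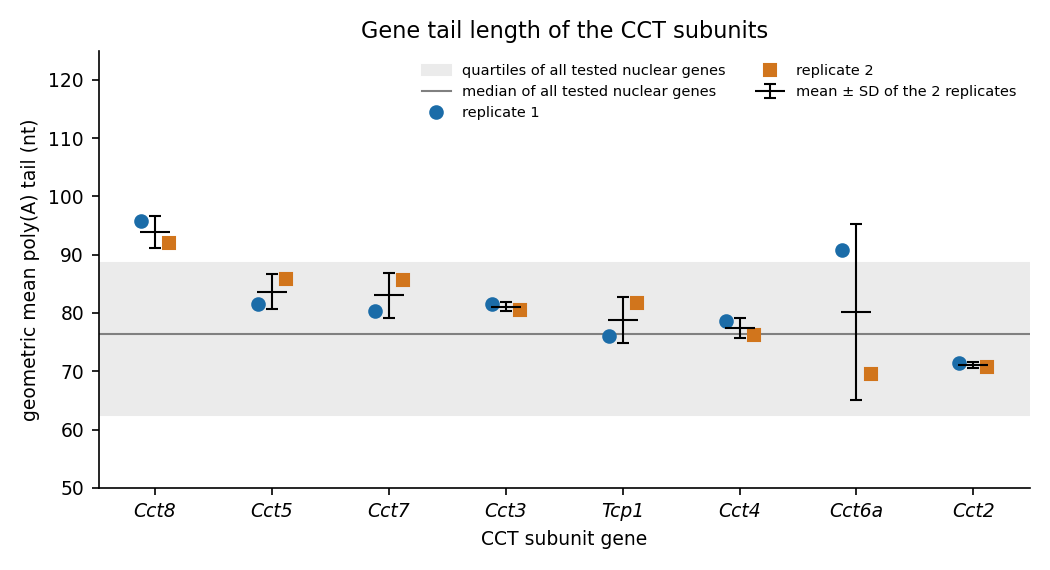
Gene tail length of each CCT subunit in nt (y axis), ordered by the pooled value, with replicate 1 as circles, replicate 2 as squares and bars for the mean ± SD of the 2 replicates. The line and band are the median (76.4 nt) and quartiles (62.4 and 88.6 nt) of 7146 tested nuclear genes. Cct8 lies above the upper quartile in both replicates, Cct2 lies below the median in both, and the Cct6a replicates are 21.3 nt apart.

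On the high affinity side, Tcp1 (ENSMUSG00000068039, chromosome 17, 12915701 to 12925067, plus strand) had tails of 76.1 nt in replicate 1 (340 transcripts) and 81.7 nt in replicate 2 (828 transcripts), or 78.9 ± 3.95 nt (SD, n = 2). Its median tail was 78.5 nt (95% interval 74 to 90) and 93 nt (88 to 97), so replicate 2 was the longer by either measure. Cct2 (ENSMUSG00000034024, chromosome 10, 117051001 to 117063814, minus strand) had tails of 71.5 nt (451 transcripts) and 70.7 nt (1271 transcripts), or 71.1 ± 0.569 nt. It had the most transcripts of the family and the closest replicates, with medians of 78 and 77 nt.

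Cct4 (ENSMUSG00000007739, chromosome 11, 22990519 to 23003780, plus strand) had tails of 78.6 nt (209 transcripts) and 76.2 nt (558 transcripts), or 77.4 ± 1.69 nt. Cct5 (ENSMUSG00000022234, chromosome 15, 31590800 to 31601804, minus strand) had tails of 81.6 nt (485 transcripts) and 85.8 nt (1040 transcripts), or 83.7 ± 2.98 nt. Cct5 was the longest of this side in both replicates and held the longest single tail of the family, 375 nt in replicate 2.

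On the low affinity side, Cct3 (ENSMUSG00000001416, chromosome 3, 88297116 to 88321767, plus strand) had tails of 81.6 nt (373 transcripts) and 80.5 nt (621 transcripts), or 81.1 ± 0.765 nt. Cct7 (ENSMUSG00000030007, chromosome 6, 85451514 to 85468475, plus strand) had tails of 80.3 nt (337 transcripts) and 85.7 nt (504 transcripts), or 83.0 ± 3.83 nt. The replicates of these 2 subunits overlapped. Cct8 (ENSMUSG00000025613, chromosome 16, 87483326 to 87495873, minus strand) had tails of 95.8 nt (339 transcripts) and 92.0 nt (784 transcripts), or 93.9 ± 2.67 nt. Both values exceeded every other subunit value in either replicate, and the medians, 110 nt (100 to 115) and 106 nt (102 to 111), were also the highest.

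Cct6a (ENSMUSG00000029447, chromosome 5, 129786998 to 129846371, plus strand) had the fewest transcripts and the largest gap between replicates, with tails of 90.8 nt in replicate 1 (89 transcripts) and 69.5 nt in replicate 2 (197 transcripts), or 80.2 ± 15.04 nt. It ranked second in replicate 1 and last in replicate 2. Its medians were closer, 103 nt (88 to 119) and 90 nt (80 to 99), and their intervals overlapped. No order among the subunits therefore rests on Cct6a. The annotation used for the files types this gene as a processed transcript and not as protein-coding. RefSeq notes that its transcript aligns to the genome over 94% with 6 substitutions, and whether reads were lost at this gene was not tested.

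Of the neighbours in the pooled order, Cct8 and Cct5 were the only pair whose replicate values did not overlap. They were 8.73 nt apart when pooled, 14.2 nt in replicate 1 and 6.25 nt in replicate 2. Further down, Cct5, Cct7, Cct3, Tcp1, Cct4, Cct6a and Cct2 each overlapped with the next. Over all pairs of subunits, 15 of 28 (53.6%) did not overlap, against 74.3% of all pairs among the 1022 genes that had 50 or more transcripts in both replicates. Cct8 accounted for 7 of the 15 pairs, since it overlapped with none, and Cct2 was apart from every subunit except Cct6a. Cct3, Cct5 and Cct7 were each apart from Cct2, Cct4 and Cct8 only. Cct6a, with replicates 21.3 nt apart, was apart from Cct8 only. A wide gap between replicates makes overlap likely, so the lower share of CCT pairs does not show that their tails are alike.

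The 8 subunits spanned 22.3 nt, a ratio of 1.31 between longest and shortest. The SD of their log2 tail lengths was 0.119, beside 0.106 between replicates of a subunit. Without Cct6a, a choice made after seeing the data, the SD among subunits was 0.122 and that between replicates 0.0467, so the spread among the other 7 subunits exceeded that between their replicates. Without Cct2 and Cct8, also chosen after seeing the data, the SD among the other 6 subunits was 0.0637. Leaving out both ends of an order lowers its SD by construction. Among the 1022 deeper genes the SD was 0.331. These genes ran from 1.42 to 139 nt, but their quartiles were 71.8 and 90.9 nt, close to the ends of the CCT range. Over the 8 subunits the replicates had a Spearman correlation of 0.310 and a Pearson correlation of 0.361 on the log2 scale, and without Cct6a these were 0.714 and 0.856 over 7. The subunits share 2 libraries of unequal depth, and these correlations are descriptions only.

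The sides of the ring overlapped in tail length. The high affinity side had a median of 78.4 nt (77.3 and 78.9 nt in the replicates) and ran from 70.9 to 84.4 nt. The low affinity side had a median of 82.2 nt (86.2 and 83.1 nt) and ran from 75.5 to 93.1 nt.

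The distance between subunits was also taken over whole distributions, as the largest gap between cumulative curves, on a scale from 0 for identical curves to 1. Over the 28 pairs it had a median of 0.0815. The lowest was 0.0267, between Cct3 and Cct7, and the highest was 0.216, between Cct2 and Cct8. For that last pair the gap was 0.238 in replicate 1 and 0.220 in replicate 2, while the replicates of Cct2 lay 0.0308 apart and those of Cct8 0.0387. The widest gap between replicates of a subunit was 0.143, for Cct6a, which had only 89 and 197 transcripts. Such gaps widen as transcripts become fewer, so gaps of subunits with unlike depth are not strictly comparable.

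**Figure D2:**
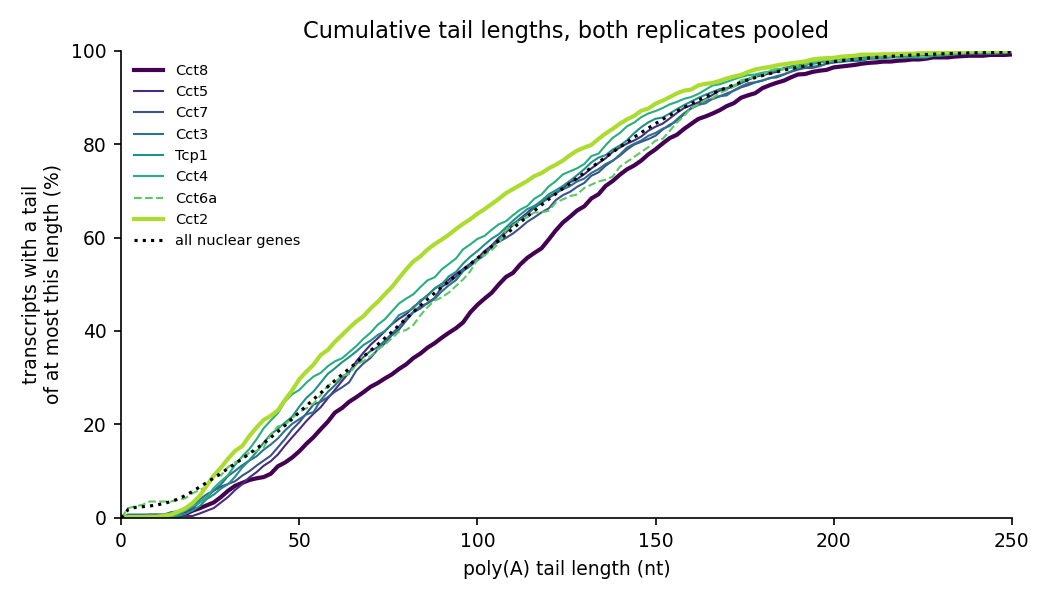
Share of transcripts with a tail of at most the length on the x axis (nt), both replicates pooled, for each CCT subunit and for all nuclear genes (dotted). Cct2 (thick, upper curve) and Cct8 (thick, lower curve) enclose most of the other curves over the middle range, with a largest gap of 0.216, and Cct6a (dashed) follows all nuclear genes at the very short end.

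Cct8 differed from Cct2 in the same direction at both ends of the distribution. Tails over 90 nt made up 63.1% and 60.7% of Cct8 transcripts in replicates 1 and 2, but 40.6% and 40.4% of Cct2 transcripts, a difference of 21.5 ± 1.55 percentage points (SD, n = 2). Tails of at most 30 nt made up 4.72% and 6.25% for Cct8 and 12.6% and 12.7% for Cct2, a difference of -7.17 ± 1.06 points. The median tail was longer for Cct8 by 32 and 29 nt. Both differences were far wider than the gap between the replicates of either gene.

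In all nuclear transcripts, 50.6% of tails were over 90 nt in each replicate. Cct8 was the only subunit above that share in both replicates, where 39.3% of the 1022 deeper genes were. Cct2 and Cct4 were below it in both, where 37.7% of those genes were, with 49.8% and 45.7% for Cct4. Tcp1, Cct3, Cct5, Cct6a and Cct7 lay on different sides in the 2 replicates. All CCT transcripts together had 49.0% and 49.8% over 90 nt and medians of 89 and 90 nt, beside a nuclear median of 91 nt in both.

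**Figure D3:**
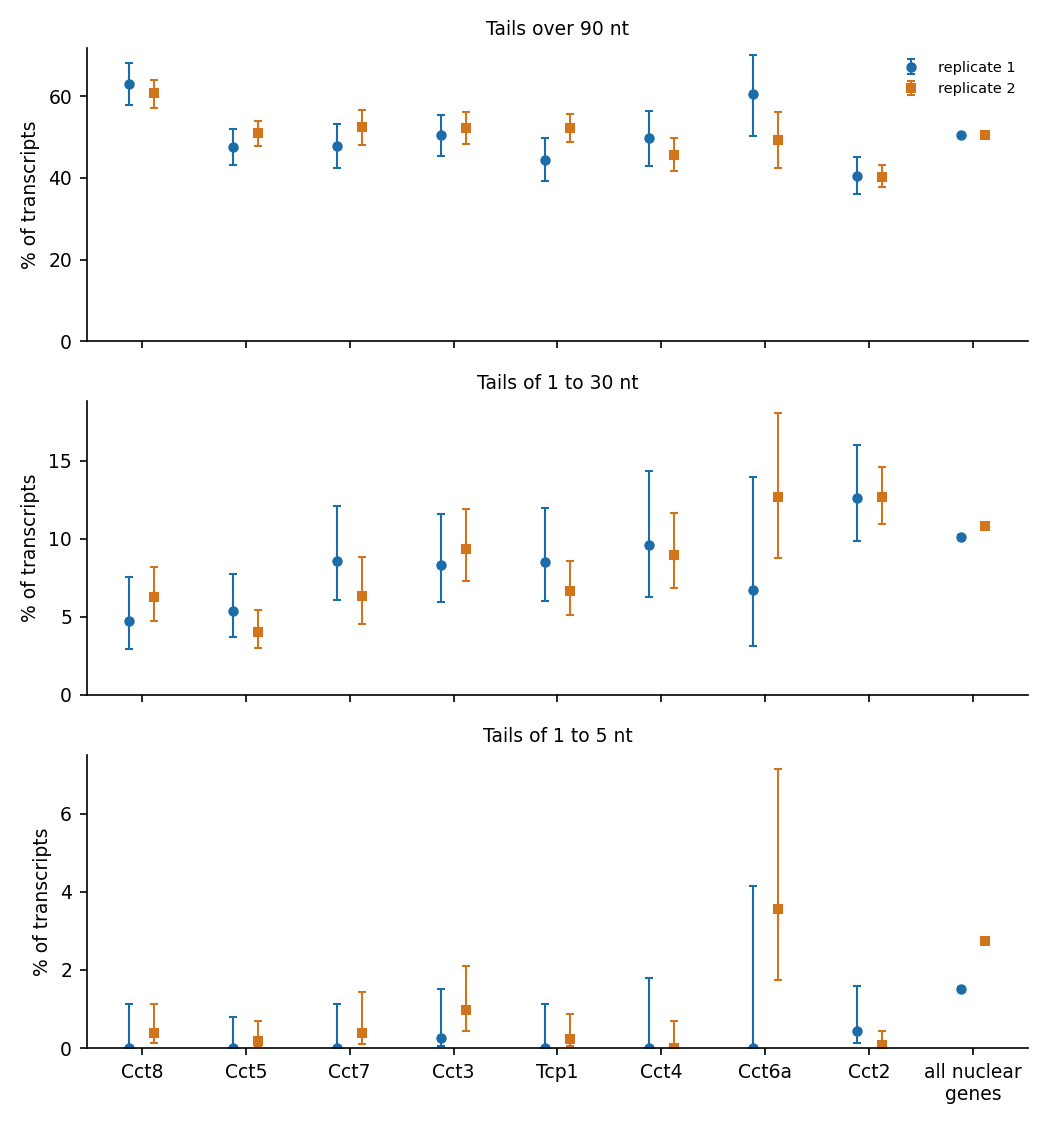
Percent of transcripts (y axes, from 0) with tails over 90 nt, of 1 to 30 nt and of 1 to 5 nt, for each CCT subunit and for all nuclear genes, with replicate 1 as circles, replicate 2 as squares and bars for 95% Wilson intervals. Cct8 is highest and Cct2 lowest in long tails in both replicates (replicate 1: 63.1% and 40.6%), and the very short tails of Cct6a stand at 3.55% in replicate 2.

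Very short tails of 1 to 5 nt were scarce on CCT mRNAs. They made up 3 of 2623 transcripts in replicate 1, or 0.114% (0.0389 to 0.336), and 23 of 5803 in replicate 2, or 0.396% (0.264 to 0.594). Among all nuclear transcripts the shares were 1.52% and 2.75%. Of the 8 subunits, 7 (87.5%) were below the nuclear share in both replicates, but so were 75.3% of the 1022 deeper genes, so this low share is common to most well covered genes. Cct4 had none among 767 transcripts, which allows a share of up to 0.391% (3 reads of 767), or 0.498% by the Wilson limit. Both replicates pooled gave 0.309%. Leaving out the bases at both ends of each tail gave 0.107%, but that step removes tails of 1 or 2 nt by construction.

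Cct6a was the exception, but in replicate 2 only, where its interval included the nuclear share of 2.75%. It had 0 such tails among 89 transcripts in replicate 1, which allows up to 3.37% (3 reads of 89) or 4.14% by the Wilson limit, and 7 among 197 in replicate 2, or 3.55% (1.73 to 7.15), and 6 of the 7 had a tail of 1 nt. These few reads weighed heavily in its geometric mean. Without tails under 6 nt, Cct6a stood at 90.8 and 80.7 nt (pooled 83.8 nt), so its replicates lay closer. The same step moved Cct8 to 94.3 nt and Cct2 to 71.4 nt. Without Cct6a, the pooled share of tails of 1 to 5 nt on CCT mRNAs was 0.233%.

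Against other genes, the CCT subunits were close to the middle. Their median gene tail length was 80.5 nt (80.9 and 81.1 nt in the replicates), 4.10 nt above the median of 76.4 nt for 7146 tested genes. Against the 450 genes that had 100 or more transcripts in both replicates, a limit that Cct6a did not pass, the difference turned to -0.797 nt, and with tails under 15 nt left out it was 1.42 nt. The direction was therefore not the same against better covered genes. Cct3, Cct5, Cct7 and Cct8 (4 of 8) exceeded the all-gene median in both replicates, as did 49.6% of the 1022 deeper genes. By percentile among tested genes, the subunits ran from 39.6 for Cct2 to 81.9 for Cct8, with Tcp1 at 58.2, Cct3 at 60.01 and Cct4 at 51.3.

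A few tails carried bases other than A. In all CCT transcripts the share with at least one non-A base was 11.3% and 9.48% in replicates 1 and 2 (10.4 ± 1.28%, SD, n = 2), beside 12.2% and 9.55% of nuclear transcripts. The difference between the families was smaller than the gap between replicates. Cct3, Cct4, Cct7 and Tcp1 were lower than the nuclear share in both replicates (4 of 8, with 36.2% of the deeper genes), with Cct4 at 8.13% and 8.96% and Cct7 at 8.90% and 8.53%. Cct2 had 11.5% and 12.1%, and Cct8, at 14.7% and 8.55%, differed most between replicates.

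Tails that end in T are the mark left by terminal uridylation, which occurs mostly on shortened tails. A last T stood on 3.24% and 2.21% of CCT tails (2.72 ± 0.732%) and on 3.93% and 2.58% of nuclear tails. With both replicates pooled, the share ran from 0.976% of CCT tails over 150 nt to 9.58% (60 of 626, interval 7.52 to 12.1) of those of 16 to 30 nt and 14.7% (5 of 34, interval 6.45 to 30.1) of those of 6 to 15 nt. The shortest of these classes rested on few reads that differed between replicates, 4 of 12 (33.3%) and 1 of 22 (4.55%). None of the 26 CCT tails of 1 to 5 nt ended in T, which allows up to 12.9% by the Wilson limit. The nuclear share in that class was 1.65%, so 26 tails cannot show a difference. All nuclear tails had 1.19%, 13.2% and 24.9% in the other classes. Between 16 and 30 nt the CCT share was 7.54% and 10.5% in the replicates, beside 15.6% and 11.8%. Cct2, with the most transcripts and 218 tails of at most 30 nt, also held the most tails of 6 to 30 nt with a last T, 24. Cct3 held 11, with 89 tails of at most 30 nt, and Cct5 held 1, with 68. These are counts, and they do not show that Cct2 tails ended in T more often.

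The following tails show this end in each subunit. Each is the tail of 6 to 30 nt with a last T that was read with the most passes, printed 5′ to 3′ with the T at the end in capitals.
Tcp1: aaaaaaaaaaaaaaaaaaaaaaaaaaT
Cct2: aaaaaaaaaaaaaaaaaaaaaaT
Cct4: aaaaaaaaaaaaaTT
Cct5: aaaaaaaaaaaaaaaT
Cct3: aaaaaaaaaaaaaaaaaaT
Cct6a: aaaaaaaaaaaaaaaaaaaaTT
Cct7: aaaaaaaaaaaaaaaaaaaTT
Cct8: aaaaaaaaaaaaaaaaaaaaTT

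The number of passes behind them ran from 61 for Cct4 to 224 for Cct6a. Of the CCT tails of 6 to 30 nt, 565 were made of A only, 65 ended in T and 21 had a base other than A ahead of their last 3 bases. Of this last kind, a tail of Cct3 with a C near its end, one of Cct8 with a C in its middle and one of Cct4 with a G, each the one of its gene with the most passes, are printed with the base in capitals.
Cct3 with C: aaaaaaaaaaaaaaaaaaaaaaaaCaaa
Cct8 with C: aaaaaaaaaaaaaaaaCaaaaaaaaaaa
Cct4 with G: aaaaaaaaaaaaaaaaaaGaaa

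The CCT mRNAs were compact in RefSeq. They ran from 1895 nt (Cct5) to 2499 nt (Tcp1), with a median of 2087 nt beside 2888 nt for the 6645 matched genes. Their 3′ untranslated regions had a median of 233.5 nt beside 970 nt, from 128 nt for Cct5 to 663 nt for Cct8. Cct8 had both the longest of these regions and the longest tails, but Tcp1 (591 nt) had a region nearly as long with tails in the middle of the family. Cct6a (623 nt) had tails that ranked differently in each replicate. Over the 8 subunits, tail length had a Spearman correlation of 0 with mRNA length and of -0.0952 with the length of the 3′ untranslated region. Over the 6645 genes the correlations were -0.381 and -0.213. The 373 genes within the same ranges of both lengths had a median tail of 76.1 nt (quartiles 64.9 and 86.4), which Cct8 exceeded and within which the other 7 subunits fell.

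Genes that work with CCT were taken from lists of known partners. Prefoldin, which hands unfolded actin and tubulin to CCT, had a median of 84.5 nt (93.6 and 85.9 nt in the replicates). Of its subunits, 4 of 6 were above the all-gene median in both replicates, beside 35.7% of the 4286 genes that had at least 10 transcripts in both. CCT had 4 of 8, beside 49.6% of the 1022 deeper genes. Pfdn5 had tails of 109 and 114 nt, longer than any CCT subunit in either replicate, on 45 transcripts. Pfdn2 followed at 100.7 and 96.1 nt. Pfdn4 had 91.9 and 84.8 nt, Pfdn1 95.3 and 68.6 nt, Vbp1 70.2 and 87.0 nt, and Pfdn6 79.4 and 78.1 nt. With 45 to 165 transcripts each, these values scatter more between replicates than those of CCT, with an SD of 0.169 on the log2 scale.

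Of the phosducin-like cofactors that bind CCT, 1 of 3 was above the all-gene median in both replicates. Among the 4286 genes that had at least 10 transcripts in both, 35.7% were. Pdcl had 57.0 and 78.3 nt, Pdcl3 had 75.8 and 53.6 nt and Txndc9 had 90.97 and 84.1 nt, on 55 to 88 transcripts. None of the 3 had replicates within 5 nt of each other. The tested clients of CCT, mainly tubulins with Actb as the only actin, had a median of 89.6 nt. Of the 14, 11 were above the all-gene median in both replicates, beside the same 35.7% and 49.6% of the 1022 deeper genes. With 35 to 1602 transcripts a gene, neither share matches the depth of every client. The actin Actg1 had 4 transcripts and was not tested. By pooled values the clients ran from Tubb2a (56.5 and 68.3 nt in the replicates) to Actb, cytoplasmic β-actin (122 and 122 nt). In replicate 1 the WD40 client Gnb2, at 134 nt, was longer than Actb. Actb thus had tails longer than every CCT subunit in both replicates.

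The tubulin folding cofactors, which take over tubulin after CCT, had 2 of 4 above the all-gene median in both replicates. The share over the 4286 genes was 35.7%. These cofactors ran from Tbce at 53.6 and 73.1 nt to Tbca at 123 and 97.2 nt. Hspd1 and its lid Hspe1, the chaperonin of mitochondria, had 79.95 and 79.7 nt and 93.7 and 88.4 nt. The testis paralog Cct6b had 4 transcripts and Cct8l1 had none, so no tail is given for them.

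Other complexes with fixed subunits served as a yardstick for the spread within a complex. The MCM helicase, which unwinds DNA at replication origins, had 6 subunits with 280 to 866 transcripts and an SD of log2 tail lengths of 0.110, close to 0.119 for CCT. By pooled values its extremes were Mcm4 (63.2 and 65.1 nt in the replicates) and Mcm5 (76.0 and 80.9 nt). In replicate 1, Mcm7 (88.1 nt) and Mcm2 (79.3 nt) were longer than Mcm5. In replicates 1 and 2 the SD was 0.158 and 0.109 for MCM, and 0.135 and 0.141 for CCT. The core 20S proteasome had an SD of 0.211 over 13 tested genes, but on 48 to 381 transcripts a gene. By pooled values it ran from Psma5 (56.5 and 67.5 nt in the replicates) to Psmb3 (99.9 and 98.4 nt). In replicate 2, Psma3 (58.9 nt) was shorter than Psma5, and Psmb4 (105.8 nt) was longer than Psmb3. The SD between replicates was 0.106 for CCT, 0.0888 for MCM and 0.121 for the proteasome. The median tail was 80.5 nt for CCT, 77.2 nt for MCM and 88.6 nt for the proteasome.

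**Figure D4:**
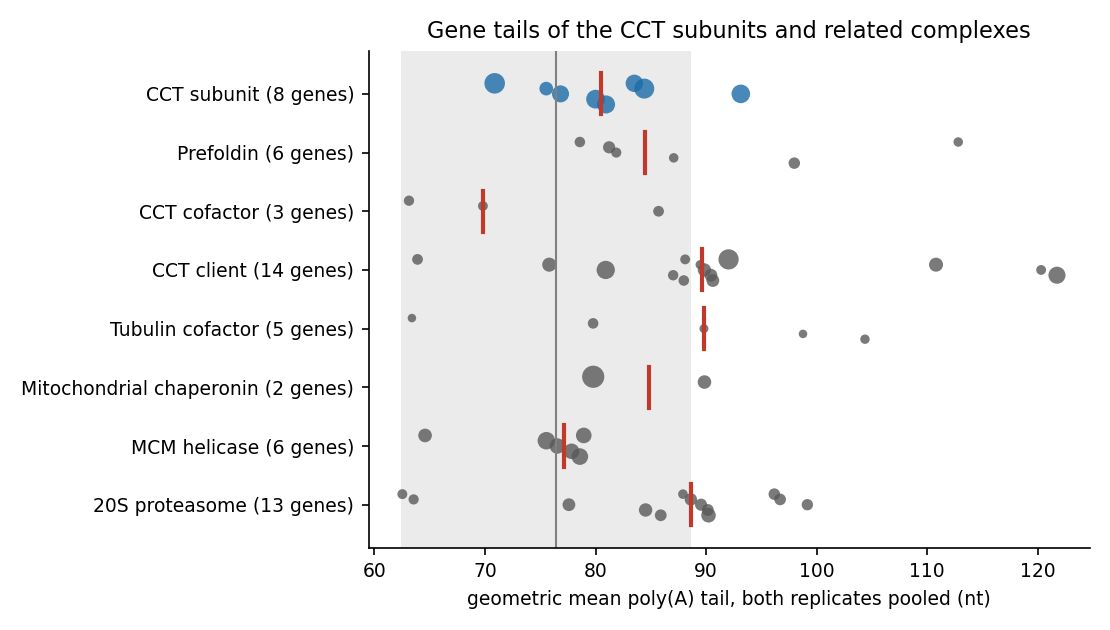
Gene tail length in nt, both replicates pooled (x axis), for each tested gene of the CCT subunits (blue) and of 7 related lists (grey), with larger points for more transcripts, a red bar for the median of each list, and a line and band for the median and quartiles of all tested genes. The CCT points run from 70.9 to 93.1 nt around a median of 80.5 nt, and the prefoldin and client lists hold the genes above 110 nt.

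The genes whose tail distribution lay closest to that of all CCT transcripts were Eif3g, a translation initiation factor subunit, Hspd1, and Hnrnpab, an RNA-binding protein. Among the 443 other genes that had 100 or more transcripts in both replicates, their largest gaps to the CCT curve were 0.0247, 0.0266 and 0.0267, where the median gene had 0.0994. Their tails were 81.8, 79.8 and 79.2 nt. The gap between the CCT curves of replicates 1 and 2 was 0.0158, smaller than each of these, but on 2623 and 5803 transcripts. The 3 genes had 514, 2382 and 1004 transcripts, and gaps widen with fewer, so these are not strictly comparable. The gap between CCT and all nuclear transcripts was 0.0364.

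The reads of some subunits could be shared with other genes. Tcp1, Cct6a, Cct7 and Cct8 overlap a gene on the opposite strand. Of these, Mrpl18 at Tcp1 had 120 transcripts, Usp16 at Cct8 had 93, Psph at Cct6a had 36 and Pradc1 at Cct7 had 14. Acat3, which overlaps the 3′ end of Tcp1 by 1255 nt, had none. Usp16 overlaps the 3′ end of Cct8 by 192 nt, whereas Mrpl18, Psph and Pradc1 overlap the 5′ ends of their subunits. The part of Usp16 in the Cct8 tail values was not tested. Whether genes were counted by strand is not given in the sources used here. The share of each subunit among CCT transcripts also moved between replicates, from 12.8% to 8.69% of CCT transcripts for Cct7 and from 17.2% to 21.9% for Cct2, and its part in the tail values was not tested.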

How the data were processed

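PAIso-seq libraries were made from about 500 ng of total RNA of wild-type 24 h EpiLCs. The authors built circular consensus reads, split them by barcode, mapped them to mm10 with minimap2 (2.17) and assigned genes with featureCounts (2.0.1, per the labels). Their deposited table gives, for each read with a tail, the barcode, gene, number of passes, how many A, T, C or G it read in the tail, and the tail sequence, without normalization. Cells without Cnot8 were not analysed here.

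Reads with at least 7 passes were kept (92.9% of 9074 CCT reads), with 378458 and 635217 reads with a tail in the replicates. Tail length included non-A bases, and genes needed 10 transcripts. Genes were placed with GENCODE vM21 (GRCm38), and mRNA ends were read from RefSeq on the same build. Replicates were numbered by barcode. Nothing in the labels says that they came from separate cultures, so the spread between them may be technical. Intervals of shares are 95% Wilson intervals and those of medians are exact order-statistic intervals. Without molecular identifiers, both cover counting error only. The share that 3 reads can show was 0.114% and 0.0517% of CCT transcripts. Values came from Python 3.11.15 with numpy 2.4.6, pandas 2.3.3 and scipy 1.17.1, and the calculations were tested on simulated data. The members and lists were chosen with earlier results of these data known. The text names all subunits, every prefoldin subunit and cofactor with at least 10 transcripts, the extremes of the other lists, and the 3 genes closest in distribution. Alternatives changed the pass filter, the tail definition, the shortest tail kept, the mean used, the gene filter and the replicates.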

Additional observations from a re-analysis of the deposited data

How the results depend on the processing

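The ends of the order, Cct8 and Cct2, held in all settings except replicate 2 alone, where Cct6a was shortest. The order between them and the position relative to all genes did not hold. The median gene tail length of the 8 subunits, 80.5 nt, was 79.8 nt with at least 15 passes, 80.3 nt from A bases only and 80.3 nt from wells with 1 transcript. It was 83.6 and 84.5 nt with tails of at least 6 and 15 nt, 97.1 nt as an arithmetic mean and 91.2 nt as a median. Single replicates gave 80.9 to 81.1 nt, and without Cct6a, chosen after seeing the data, it was 80.9 nt. The SD among subunits (log2), 0.119, was 0.0954 with arithmetic means, 0.135 with medians and 0.135 to 0.141 in single replicates.

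The difference from all tested genes, 4.10 nt, was 2.97 nt with both end bases of each tail left out. It was 2.40 and 1.42 nt with tails of at least 6 and 15 nt, 2.25 nt with medians and 2.94 to 4.34 nt in single replicates. With protein-coding genes only it was 5.47 nt, but over 7 subunits, since Cct6a is not typed as protein-coding. It turned to -0.797 nt when 100 or more transcripts in both replicates were required, where fewer genes and 7 subunits remain.

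With the end bases left out, the share of tails of 1 to 5 nt was 0.107%, that over 90 nt 48.6% and that with a non-A base 7.08%. In single replicates these shares were 0.114% to 0.396%, 49.0% to 49.8% and 9.48% to 11.3%, and that with a last T 2.21% to 3.24%. The median distance between subunits, 0.0815, was 0.0773 with at least 8 passes, 0.0854 with the tail ends left out, 0.0859 and 0.0873 with tails of at least 6 and 15 nt, and 0.0932 to 0.0973 in single replicates. For single subunits, 58 of the other values moved by less than the spread between replicates and 22 by more. No paired analysis was possible because there is 1 group only. Depth limits Cct6a most, with 89 transcripts in replicate 1.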
